A study of Mus musculus with 2 samples.

Results

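A set of 7 miRNA genes known from endothelium and the vessel wall, Mir126a, Mir221, Mir222, Mir132, Mir212, Mir218-1 and Mir218-2, was followed in whole bladders of newborn mice. They were chosen by name, for what is known of them in blood vessels, with earlier results of these data known. They are 7 of the 1973 annotated miRNA genes counted. All 7 were detected, meaning at least 1 CPM (counts per 1000000 sense-strand gene counts) and 3 counts in both libraries, as were 335 genes in all. The bladders came from B6NCrl mice at postnatal day 0, with no treatment or genetic change named in the labels. There were 2 libraries in 1 group, each of total RNA of under 30 nucleotides from the bladder of 1 pup. The pups were littermates entered under the same donor record, and their sex was not collected. They are called pup 1 and pup 2 here, after their replicate numbers.

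Blood vessels are lined by endothelial cells and wrapped by smooth muscle cells and pericytes. Short RNAs cut from hairpin precursors tune this wall by guiding repression of messenger RNAs, and their bases 2 to 8, the seed, do most of the target pairing. miR-126 is enriched in endothelial cells, where it represses inhibitors of growth factor signalling such as Spred1. miR-221 and miR-222 repress the receptor Kit and the cell cycle inhibitor Cdkn1b, with known roles in endothelium and in vascular smooth muscle. miR-132 and miR-212 are made from neighbouring hairpins downstream of the transcription factor CREB; miR-132 represses Rasa1 in growing vessels and is also a miRNA of neurons. miR-218 is encoded in introns of the guidance cue genes Slit2 and Slit3 and represses their receptor Robo1; it is also a miRNA of motor neurons.

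The mature products with an entry show which of these loci share a seed. The RefSeq table used held no entry for the 5p arm of Mir126a or of Mir222. The 5p entries of Mir221, Mir132 and Mir212 are not printed. Gene counts do not separate the arms, so they are not counts of a printed product alone. The following 7 sequences are RefSeq entries on GRCm38.p6, written 5′ to 3′ with the seed in capitals.
miR-126a-3p: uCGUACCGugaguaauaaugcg
miR-221-3p: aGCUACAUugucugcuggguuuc
miR-222-3p: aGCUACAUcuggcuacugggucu
miR-132-3p: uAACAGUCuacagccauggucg
miR-212-3p: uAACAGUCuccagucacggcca
miR-218-5p: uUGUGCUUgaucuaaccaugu
miR-218-2-3p: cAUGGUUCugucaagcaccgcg

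miR-221-3p and miR-222-3p are identical over their first 8 bases and share 11 of 23 positions. miR-132-3p and miR-212-3p are identical over their first 9 bases and share 17 of 22 positions. No mature sequence of these 4 genes is contained whole in another hairpin of the RefSeq table. miR-218-5p differs from them in this: its 21 bases are the same in the hairpins of Mir218-1 and Mir218-2, which share a run of 22 bases, uugugcuugaucuaaccaugug. The opposite arms of those 2 hairpins differ. The arm of Mir218-1, shown next for comparison with miR-218-2-3p above, shares a run of 10 bases with it.
miR-218-1-3p: aAACAUGGuuccgucaagcacc

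A read that lies inside the shared run of 22 bases maps to both Mir218 loci. Reads mapped to several places were listed by the authors in a total of their own, 22.7% of reads in pup 1 and 24.8% in pup 2, apart from the gene counts. The counts of both Mir218 genes can therefore leave out their shared product. How many such reads belong to miR-218-5p was not measured. The seed of miR-126a-3p is in no other mature entry of the RefSeq table, and that of miR-132-3p and miR-212-3p in none beyond this pair. Outside these genes, Mir1928 holds the seed of miR-221-3p and Mir7002 that of miR-218-5p, and Mir496b that of miR-218-1-3p. All 3 had a count of 0 in both libraries, which allows up to 0.402 CPM in pup 1 and 0.825 in pup 2.

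Mir126a stood far above the other 6 genes. It had 148576 counts in pup 1 and 71444 in pup 2. These were 19915 and 19646 CPM, or 19780 ± 190 CPM (SD, n = 2). The pups thus lay within 1.37% of each other, and Mir126a ranked 8 of the 335 detected genes by mean level. It held 97.1% ± 0.286 of the summed counts of the 7 genes. A read of this size comes from 1 short RNA, so CPM values of different genes were compared without division by length. Such comparisons are of read counts. Whether different short RNAs were captured equally in the libraries was not measured.

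Together the other 6 genes reached 557 CPM (pup 1) and 634 CPM (pup 2). Mir221 was at 237 and 293 CPM (mean 265 ± 40.0 CPM), 75.5 ± 12.1-fold below Mir126a. Mir222 followed at 148 and 166 CPM (157 ± 12.4 CPM), and Mir132 at 135 and 137 CPM (136 ± 1.10 CPM). These 3 genes lay above the median detected gene, which had 74.0 CPM, at ranks 118, 136 and 142. Mir218-2, at 16.2 and 19.0 CPM (17.6 ± 1.95 CPM), Mir212, at 12.3 and 11.8 CPM (12.1 ± 0.359 CPM), and Mir218-1, at 8.44 and 7.42 CPM (7.93 ± 0.721 CPM), lay below it, at ranks 223, 241 and 255. The low values of the Mir218 genes are levels of what could be assigned to 1 locus and not of miR-218.

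**Figure D1:**
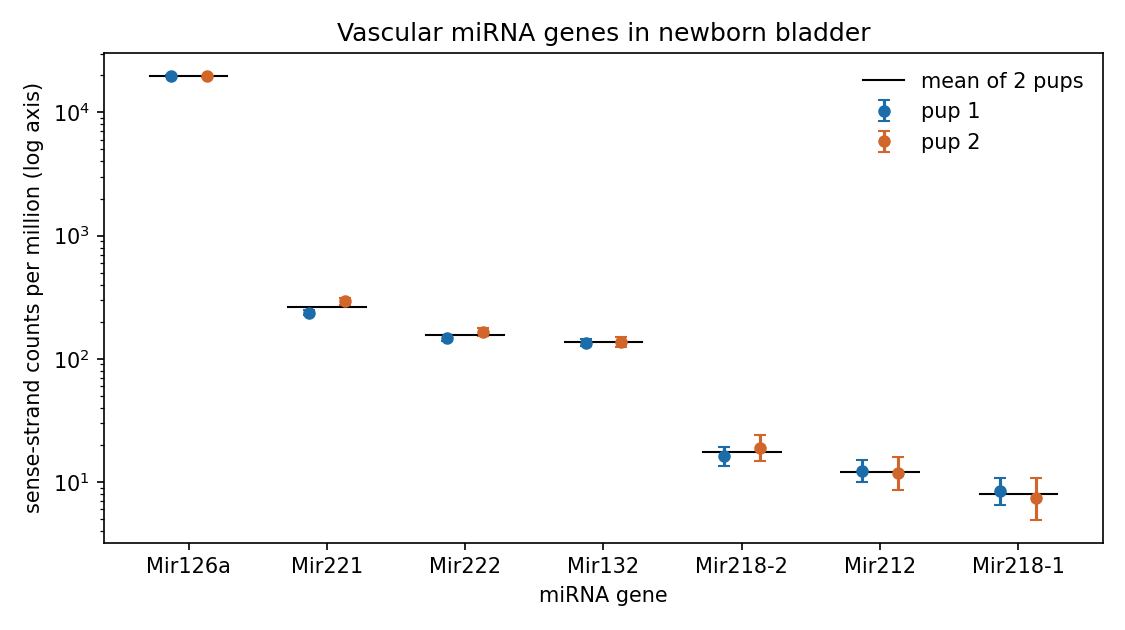
Level of each gene in each pup, in sense-strand CPM on a log axis, with exact 95% Poisson intervals for counting error as bars and the mean of the 2 pups as a black line. Mir126a lies near 19780 CPM, 3 genes lie between 136 and 265 CPM, and the last 3 lie at or below 17.6 CPM.

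In the order of levels from Mir126a to Mir218-1, no gene's values overlapped those of the next over the pups. The order was the same within each pup. Levels of different genes come from the same pups, and with 2 pups an exact permutation test within pups cannot go below p = 0.5 (two-sided), so no such test of the order could pass the threshold of 0.05. Counting error blurs the lower end: the 95% Poisson intervals of Mir218-2 and Mir212, and of Mir212 and Mir218-1, overlapped in both pups. Those of Mir222 and Mir132 overlapped in pup 1, at 139 to 157 and 127 to 144 CPM, but not in pup 2. These intervals cover the counting of reads and no other error, and the labels name no molecular identifiers. In whole bladder, fewer cells of a type and less RNA per cell cannot be told apart.

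**Figure D2:**
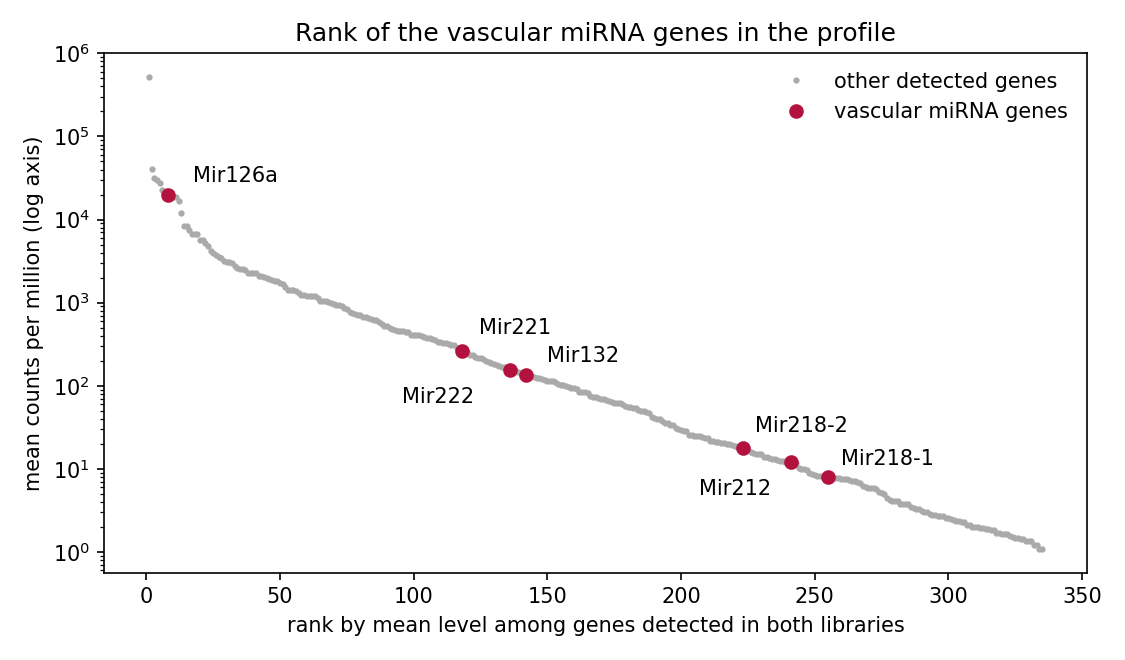
Mean level of the 335 detected genes (CPM, log axis) against their rank, with the 7 vascular genes in red. Mir126a sits at rank 8, Mir221, Mir222 and Mir132 at ranks 118 to 142, and Mir218-2, Mir212 and Mir218-1 at ranks 223 to 255.

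The genes most like each member in level were found by the distance in log2(CPM + 1) over the 2 pups. For Mir126a these were Mir23a (distance 0.135), at 18618 and 18410 CPM, and Mir23b (0.157), at 19661 and 17639 CPM. Mir221 was nearest to Mir152 (0.205) and Mir34c (0.208), both of which were lower than it in pup 2 and higher in pup 1. For Mir222 they were Mir374b (0.058) and Mir330 (0.098), and for Mir132 Mir669c (0.070) and Mir148b (0.086). Mir212 lay closest to Mir669h (0.029) and Mir34b (0.062). Mir218-1 lay closest to Mir582 (0.021) and Mir592 (0.116), and Mir218-2 to Mir877 (0.094) and Mir363 (0.112). Likeness over 2 libraries describes level alone.

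Mir126a (ENSMUSG00000065540.1) lies at chr2:26591357-26591429 of GRCm38, the assembly that mm10 names, on the plus strand. In GENCODE M21 it falls within 9 transcripts of Egfl7, a gene of endothelial cells. It is intronic in 8 of them and overlaps an exon of 1, a retained-intron transcript, with no coding sequence or UTR at the site. It also lies in an intron of the 1 spanning transcript of Gm20532, a second gene annotated as protein-coding on the same strand. Mir126b is annotated at the same place on the minus strand, and the hairpins overlap over 58 bases. Among miRNA genes within 10 kb, Mir126b was the single one annotated there.

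Mir221 and Mir222 are neighbours on the minus strand of chromosome X, at chrX:19146294-19146388 and chrX:19146893-19146971, with a gap of 504 bases and no other annotated gene over either. Mir221 was the more abundant of the pair in both pups. It held 1767 of 2871 counts in pup 1, or 61.5% (exact Clopper-Pearson 95% interval 59.7% to 63.3%). In pup 2 it held 1067 of 1669, or 63.9% (61.6% to 66.2%). The intervals overlap, which is no test of a difference, and a difference between the pups in this share was not tested. The ratio of Mir221 to Mir222 was 1.69 ± 0.122 (SD, n = 2).

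Mir132 and Mir212 were far less even. They lie on the plus strand of chromosome 11, at chr11:75173682-75173747 and chr11:75173388-75173478, 203 bases apart, both intronic to 1700016P03Rik, annotated as a processed transcript. Mir132 held 1010 of 1102 counts in pup 1, or 91.7% (89.9% to 93.2%), and 498 of 541 in pup 2, or 92.1% (89.4% to 94.2%). Its level was 11.3 ± 0.426 times that of Mir212. The hairpins of Mir132 and Mir212 are neighbours and their 3p products share a seed, but the seeds of their 5p products differ. Counts are given per gene and do not separate the arms. The order of the levels of Mir132 and Mir212 was the same in both pups.

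The Mir218 genes lie on different chromosomes, both on the plus strand and in introns. Mir218-1 is at chr5:48223942-48224051, in an intron of all 7 Slit2 transcripts that span it, and Mir218-2 at chr11:35616816-35616925, in an intron of the 1 Slit3 transcript that spans it. Of the counts assigned to either, Mir218-2 held 121 of 184 in pup 1, or 65.8% (58.4% to 72.6%), and 69 of 96 in pup 2, or 71.9% (61.8% to 80.6%). Both intervals lie above 50%. Since reads inside the shared run could not be assigned, these shares describe the reads that could be told apart and not the output of the loci.

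**Figure D3:**
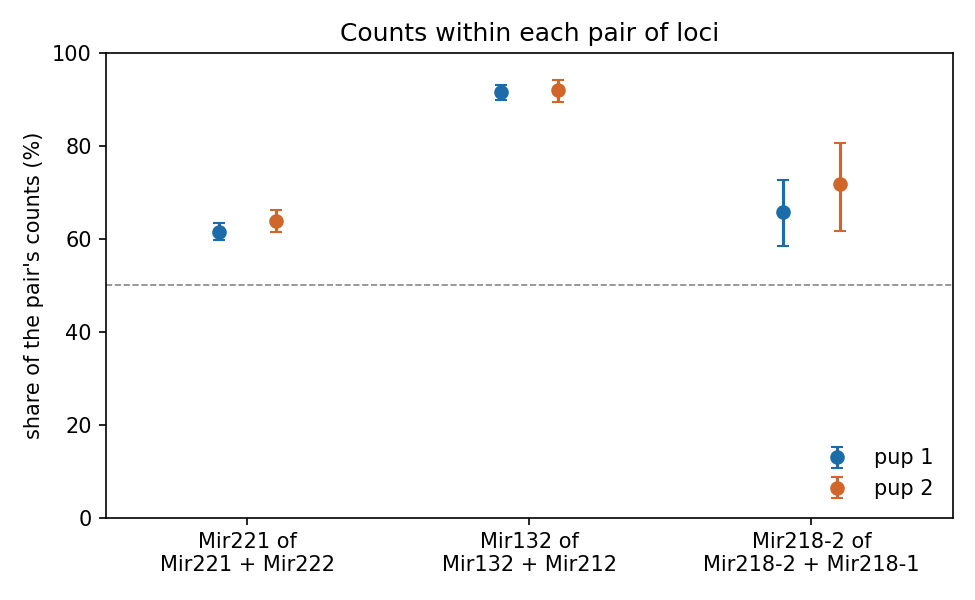
Share of each pair's counts held by Mir221, Mir132 and Mir218-2, in percent, for pup 1 and pup 2, with exact 95% Clopper-Pearson intervals as bars and a dashed line at 50%. Mir132 holds 91.7% and 92.1% of its pair, while the other 2 shares lie between 61.5% and 71.9%, and the intervals of the 2 pups overlap in each pair.

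The libraries of the littermates were then compared gene by gene. The test was an exact binomial test, two-sided and conditional on the summed count, after TMM scaling, for the 362 genes that reached 10 counts in the libraries together. This test sets 1 library against 1 other with read counting as the only error, so it compares these libraries and no condition. Over all 362 genes, 117 were called at a Benjamini-Hochberg adjusted p under 0.05, or 32.3%, with 19.1% higher in pup 2 and 13.3% higher in pup 1. Of the 7 vascular genes 2 were called, Mir221 and Mir222, both higher in pup 2; a share of 2 in 7 is near the background. None of the 7 passed a 1.5-fold difference in either direction, against 17.4% of all tested genes.

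Mir221 was 1.26-fold higher in pup 2 (log2 ratio 0.33, counting SE 0.056; adjusted p of the exact binomial test 2.70e-08). Mir222 was 1.14-fold higher (log2 ratio 0.19, counting SE 0.073; adjusted p of the exact binomial test 0.039). Both exceeded the median absolute log2 ratio of all tested genes, 0.163, and 72.4% and 54.4% of tested genes had a smaller one. The call of Mir222 rests on TMM scaling at this count minimum: its adjusted p by the exact binomial test was 0.0743 with total count scaling, 0.0986 with DESeq2 size factors, 0.0504 at a minimum of 100 counts and 0.387 with no filter, but 0.0487 in counts of both strands. When the spread between these libraries (a coefficient of variation of 13.2% by edgeR) was added in edgeR's exact test, neither gene was called and none of the 7 had an unadjusted p under 0.05. That spread was estimated from the same 2 pups taken as replicates. The difference between the pups thus enters its own error, which makes calls unlikely beforehand, so this test cannot decide on either gene.

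Of the 6 blood cell markers tested, 3 were called, all higher in pup 2, against 32.3% of all tested genes called in either direction and 19.1% called higher in pup 2. Mir223 of myeloid cells measured 396 CPM (pup 1) and 1274 CPM (pup 2). Of the red cell genes, Mir144 was at 288 and 471 CPM and Mir451a at 357 and 452 CPM. Mir486, also of red cells, was at 53.1 and 56.9 CPM. The 3 genes not called had log2 ratios of 0.16 for Mir150, 0.13 for Mir486 and -0.10 for Mir155. Mir144 and these 3 were named after their values were seen. The list's summed level was 1201 CPM for pup 1 against 2357 CPM for pup 2, and most of that gap lay in Mir223. Mir142 of that list was not analysed here. None of the list's 6 genes was at 0. Other cell type lists held calls too. Of the 2 smooth muscle genes tested, 2 were called higher in pup 2. Of 7 epithelial genes 1 was called higher in pup 2 and 2 higher in pup 1. Of 4 mesenchyme genes 1 was called higher in pup 2 and 1 higher in pup 1. None of the 8 neuron and glia genes tested was called, nor was Mir126a of the endothelium list. The part of blood cells in the difference in Mir221 and Mir222 was not tested.

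The other 5 genes were not called. Mir126a had a log2 ratio of 0.0043 (counting SE 0.0066), and 99.2% of tested genes had a larger one in size. Its sign depended on the scaling, at -0.020 with total count scaling and -0.030 with DESeq2 size factors, where the exact binomial test called it lower in pup 2 (adjusted p 0.0104 and 3.76e-05); over all alternatives the adjusted p ran from 1.44e-17 to 1. Mir132 had a log2 ratio of 0.041 (95% counting interval -0.11 to 0.20). The rarer genes were less well bounded: the interval was -0.55 to 0.49 for Mir212, -0.79 to 0.50 for Mir218-1 and -0.17 to 0.68 for Mir218-2. At these depths the counting interval of Mir218-1 holds a 1.5-fold lower level in pup 2, but not a 1.5-fold higher one. That of Mir218-2 holds a 1.5-fold higher level in pup 2, but not a 1.5-fold lower one.

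**Figure D4:**
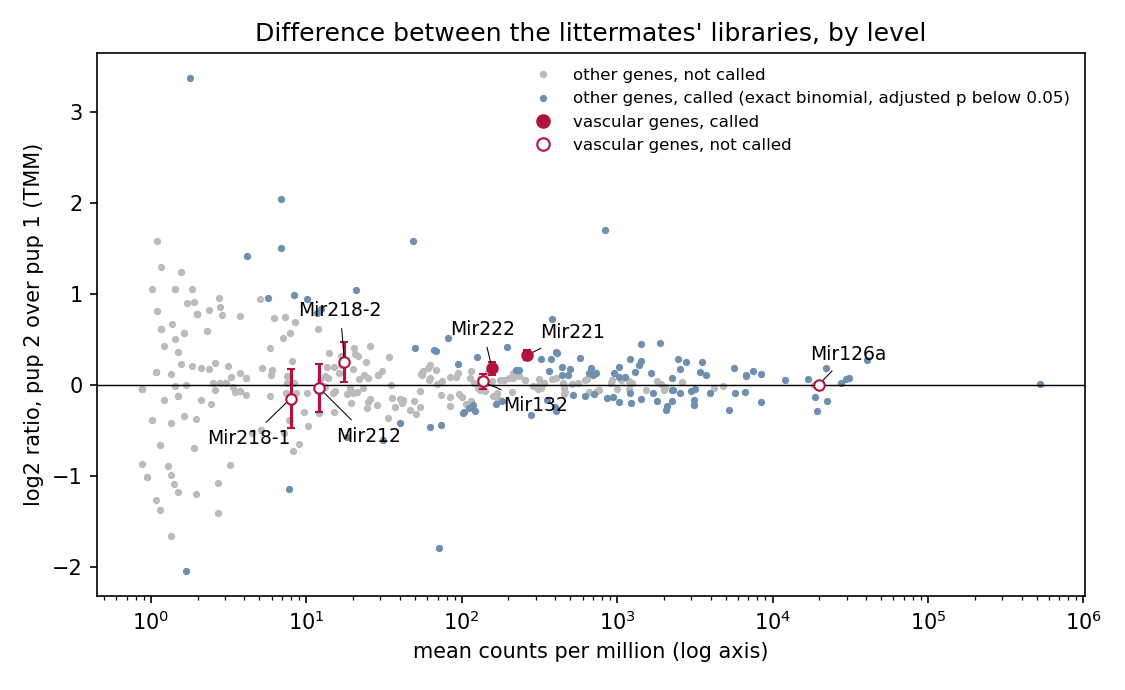
Log2 ratio of pup 2 over pup 1 after TMM scaling against mean level (CPM, log axis) for the 362 tested genes, with the 7 vascular genes in red (filled where called) and bars of 1 counting SE. Mir126a sits on the zero line at high level, Mir221 and Mir222 lie at 0.33 and 0.19, and the bars widen toward Mir212 and the Mir218 genes.

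A wider list of 31 genes known from angiogenesis or the vessel wall, chosen with earlier results of these data known, gave the context. Of these 25 were matched to a count, 24 were detected and 25 tested. Matching was by exact symbol, so a missing match is not a count of 0. The list names Mir18a, Mir92a-1 and Mir146a had no match, though genes named Mir18, Mir92-1 and Mir146 had counts. Of those, Mir18 and Mir92-1 were called higher in pup 2 and Mir146 was not called. They are left out of the list's results below. The 4 highest were Mir143, a miRNA of smooth muscle, at 524810 ± 2322 CPM, Mir21a at 31210 ± 810 CPM, Mir322 at 27501 ± 59.3 CPM and Mir23b at 18650 ± 1429 CPM. Mir126a at 19780 CPM thus lay between Mir322 and Mir23b. The exact binomial test called 16 of the 25, with 12 higher in pup 2 and 4 higher in pup 1. Over all tested genes 32.3% were called, 19.1% higher in pup 2 and 13.3% higher in pup 1. The median log2 ratio of the 25 was 0.02 beside 0.03 for all tested genes. The median level of the 25, 1434 CPM, was above that of all tested genes, 54.3 CPM, and more counts make small differences callable. No called gene of the list passed a 1.5-fold difference. Among the 25, edgeR's exact test with the common dispersion called 0, with 0 at an unadjusted p under 0.05. The error in that test came from the difference between the same pups, so it is no independent check. The direction moved with the scaling, to 8 higher and 6 lower in pup 2 with total count scaling, 8 and 7 with DESeq2 size factors and 7 and 7 with no filter. Over all tested genes 59.0% of the calls were higher in pup 2, but 48.0% with total count scaling, 44.8% with DESeq2 size factors and 42.4% with no filter.

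The tissue and its other cell types were checked by marker lists. Smooth muscle genes, Mir143 with Mir145a, reached 538292 and 535291 CPM in pups 1 and 2, and epithelial genes, led by Mir429 and Mir205, to 16684 and 16284 CPM with 7 of 7 detected. The mesenchyme list, led by Mir21a and Mir214, summed to 34807 and 35641 CPM with 4 of 4 detected. Most of that sum was Mir21a, which is also on the wider vessel list, at a mean of 31210 CPM. Mean levels were 3954 CPM for Mir214, 55.5 CPM for Mir199a-2 and 4.07 CPM for Mir199a-1. The neuron and glia list bears on Mir132, Mir212 and Mir218, which neurons also express. Its sum was 166 and 177 CPM in pups 1 and 2, with Mir338 (60.8 ± 5.03 CPM) and Mir137 (39.9 ± 3.51 CPM) highest. None of its 8 tested genes was called, against 32.3% of all tested genes. The median level of its 13 matched genes was 3.73 CPM, and few counts leave small differences uncalled. Of those 13, 5 were at 0 in both libraries, the 3 Mir124a genes with Mir9-2 and Mir9-3. Among all 1973 genes, 668 had a count in at least 1 library. The Mir124a and Mir9 genes are numbered copies, which can lose reads that map to several places. The part of neurons in the levels of Mir132, Mir212 and Mir218 was not tested.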

How the data were processed

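For each library the authors deposited raw counts, 1 whole number per miRNA gene and strand; the assembly mm10 and the annotation GENCODE M4 come from the README text beside them. Neither aligner nor counter is given in the sources used here. Columns are unnamed, so the sense strand was taken from the values, as the column with nearly all counts. The sense-strand gene counts were 7460621 in pup 1 and 3636650 in pup 2, of 11323636 and 5609988 reads. The lines of unassigned reads stayed out of library sizes.

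Ensembl gene numbers were matched to GENCODE M21, for 1894 of 1973 genes. The test was scipy 1.17.1's exact binomial test with Benjamini-Hochberg adjustment over all tested genes, on TMM library sizes from edgeR 4.0.16 (R 4.3.3). It was checked on simulated counts with counting as the only error and with raw library totals, so TMM scaling was not checked. There it called 1 of 162 unchanged genes. Of 50 genes at each size it called 27 at 1.25-fold, 30 at 1.5-fold, 40 at 2-fold and 47 at 4-fold. Log2 ratios used a prior count of 0.5, and counting intervals are 1.96 SE. DESeq2 1.42.0 gave size factors for an alternative. edgeR's quasi-likelihood test needs replicates on each side and was not possible here. Figures and sequences were handled in Python 3.11.15. Pups are littermates, so their spread does not cover differences between litters.

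The members and lists were chosen with earlier results of these data known. The named genes were the 7 members, the 2 genes nearest to each in level, the 4 highest of the context list and any called past 1.5-fold, the 2 highest of each marker list, up to 3 genes per shared seed, and host genes. The marker lists were endothelium (Mir126a and Mir126b, of which Mir126a was matched), blood, neurons and glia, smooth muscle, epithelium and mesenchyme.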

Additional observations from a re-analysis of the deposited data

Results flagged for a closer look

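Counts on the strand opposite Mir126a, which the comparisons of levels do not use, were above the limit of 3 that a count of 0 allows. There were 15 such counts in pup 1 and 10 in pup 2, or 0.0101% (exact Clopper-Pearson 95% interval 0.00565% to 0.0166%) and 0.0140% (0.00671% to 0.0257%) of the counts at the gene. The other 6 vascular genes had 0 opposite-strand counts in both pups. Such counts are not particular to Mir126a. Over all genes 3.17% of counts in pup 1 and 3.18% in pup 2 were on the opposite strand. That pooled share is not a usual level per gene, since it includes genes counted almost wholly on that strand, such as Mir299b. Mir299b had 4 sense and 9916 opposite counts in pup 1, and 1 and 4127 in pup 2. Of the other 334 detected genes, 13 had a larger opposite-strand share over both pups than the 0.0114% of Mir126a, 5 had a smaller one above 0, and 316 had no opposite-strand count. Mir126b is annotated on that strand, and its product miR-126b-5p overlaps miR-126a-3p over 19 bases, on the other strand. Its RefSeq sequence follows, with the seed in capitals.
miR-126b-5p: aUUAUUACucacgguacgaguu

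Whether the opposite-strand counts come from Mir126b was not tested.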

How the results depend on the processing

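The summed level of the 7 genes, 20376 CPM, was 19730 CPM in counts of both strands, 42880 CPM with Mir143 left out of the totals and 13317 with all reads as the total, since each of these changes the total. Leaving out 1 of 2 pups always moves a mean by less than their SD, so it is no check of the levels or of the 3 pair shares, and counts of both strands leave those shares as they are because the 6 genes have no opposite-strand count. With edgeR's exact test at the common dispersion, the calls fell to 5 of 362 genes, 0 of the 7 vascular genes (0 at an unadjusted p under 0.05) and 0 of the context list. Its dispersion was estimated from the same 2 pups taken as replicates, so this fall is no independent check of the calls. Under the other alternatives the number of calls ranged from 118 to 125, and 2 of the vascular genes were called in each, Mir221 in all of them, with Mir222 in counts of both strands and with Mir126a in the rest. Mir126a, at a log2 ratio of 0.0043, changed sign to -0.020 with total count scaling, -0.030 with DESeq2 size factors, -0.058 with no filter and -0.017 at a minimum of 100 counts, and was called in these 4; in counts of both strands it was -0.0051 and not called. No paired analysis was possible because the libraries form 1 group. Depth limits Mir212 and the Mir218 genes most, with 27 to 121 counts per library.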
